A study of Mus musculus with 20 samples.

Results

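The 10 genes described here encode enzymes and a transporter that dispose of cysteine sulfur: Cdo1, Csad, Ado, Fmo1 and Slc6a6 of the taurine branch, and Sqor, Ethe1, Suox, Tst and Mpst of the sulfide branch. They were chosen by name for their place in these pathways, with earlier results of these data known, and were 10 of the 46078 genes in the table of counts. Each of the 10 passed the filter on low counts. In the taurine branch, cysteine is oxidised to cysteine sulfinate, which is decarboxylated to hypotaurine and oxidised again to taurine, the amino acid that liver joins to bile acids. In the sulfide branch, hydrogen sulfide released from sulfur amino acids is oxidised in mitochondria through a glutathione persulfide to sulfite, and sulfite is oxidised to sulfate. Liver is a main site of both branches, and the cysteine dioxygenase step is known to follow the cysteine supply largely through the stability of the enzyme protein, which RNA-seq does not measure.

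RNA of 20 livers of male mice was sequenced to compare the loss of dietary cysteine with the loss of dietary tryptophan. The mice were Cse+/- or germline Cse-/- on a 129/C57BL/6 background and were at least 9 weeks old. Cse, listed in the table as Cth, is the gene of cystathionine γ-lyase, the enzyme that releases cysteine in its synthesis from methionine. After calorie restriction on the control diet, mice were kept on it or shifted to a calorie-restricted diet without cysteine (no-Cys) or without tryptophan (no-Trp), and livers were taken 2 days later. There were 2 Cse+/- mice on the control diet, 4 on no-Cys and 3 on no-Trp food. Of the Cse-/- mice, 4 received no-Cys food, 3 received no-Trp food and 4 received no-Trp food with BSO (L-buthionine sulfoximine), an inhibitor of γ-glutamyl cysteine synthase, the first enzyme of glutathione synthesis. All diets were made from 1 defined amino acid diet. The labels call the control genotype WT, whereas the study's list of mice calls these animals heterozygous, and no Cse-/- mouse on the control diet was analysed here. Mice are called by the names in that list, av01 to av22, and the diet of each rests on a reading of the list given under the processing.

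Each library held 11785740 to 57986121 counts on genes, with a median of 15252745, and the members held from 158 counts (the lowest library for Ado) to 126762 counts (the highest for Cdo1). Values below are CPM, counts scaled for the size of each library with TMM factors. Differences are log2 fold changes with their standard errors (SE) and 95% intervals from edgeR's quasi-likelihood test, fitted to all 20 livers and 14759 genes, and a gene passed the test at a Benjamini-Hochberg adjusted p under 0.05 over all genes tested. Cth was at 6.37 to 14.4 CPM in the 11 Cse-/- livers and at 88.4 to 332 CPM in the 9 Cse+/- livers. The liver markers matched the label, with Alb between 25510.0 and 87980.0 CPM. Between the Cse-/- and Cse+/- no-Cys livers, markers of several lists passed the same test, which 23.8% of all genes passed in this comparison. Summed levels were 40680.5 to 66566 against 85917 to 108856 CPM for general hepatocyte markers (4 of 6 fell, Alb, Apoa1, Ttr and Serpina1c, which encode secreted plasma proteins), 16.4 to 28.6 against 45.9 to 57.9 CPM for cholangiocytes (2 of 5) and 69.1 to 114 against 201 to 406 CPM for red cells (5 of 5). Markers of pericentral hepatocytes summed to 13656 to 15444 against 13371 to 15309 CPM (2 of 7 rose, Oat by 0.56 and Cyp1a2 by 0.73, and 0 fell), and those of periportal hepatocytes to 6377 to 7361 against 6615 to 8708 CPM (1 of 7 rose, Hsd17b13, and 0 fell). Lyve1 of the 5 endothelial markers rose (1.15), Lrat of the 5 stellate markers fell (-0.61), and none of the 5 Kupffer markers passed the test. Each of these markers was above 0 in at least 1 liver, and their part in the results below was not tested. In bulk tissue, fewer cells of a type and less RNA per cell cannot be told apart. The livers av15, av01 and av08 differed most from the mean of the other livers of their groups. This measure also grows as a group gets smaller, and groups of unlike size were ranked together. In the Cse+/- no-Cys group, av01 held 332 CPM of Cth against 121 to 132 CPM in its group mates. In the Cse-/- no-Cys group, av08 held 13.3 CPM of Cth against 6.37 to 7.04 CPM, and 49490.0 CPM of Alb against 25510.0 to 28860.0 CPM. In the Cse-/- no-Trp group, av15 held 877 CPM of Got1 against 424 and 483 CPM, and 306 CPM of Vnn1 against 125 and 150.3 CPM. Where a call of a member changed without one of these livers, the value without it is given.

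Between genes, levels were compared per kb of exon. Cdo1, the cysteine dioxygenase, was by far the most abundant member, at 1241 CPM per kb of exon as the mean over the 20 livers. Tst followed at 63.8, Fmo1 at 47.6, Sqor at 44.1, Suox at 43.7, Mpst at 43.6, Csad at 37.6 and Ethe1 at 26.9 CPM per kb of exon. Slc6a6, the taurine transporter, was at 9.33 and Ado, the cysteamine dioxygenase, at 3.86 CPM per kb of exon. Within a gene, the highest of the 20 livers exceeded the lowest 8.07-fold for Csad, 2.44-fold for Ethe1 and 2.27-fold for Slc6a6. The other members spanned 1.52-fold (Ado) to 1.78-fold (Suox).

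**Figure D1:**
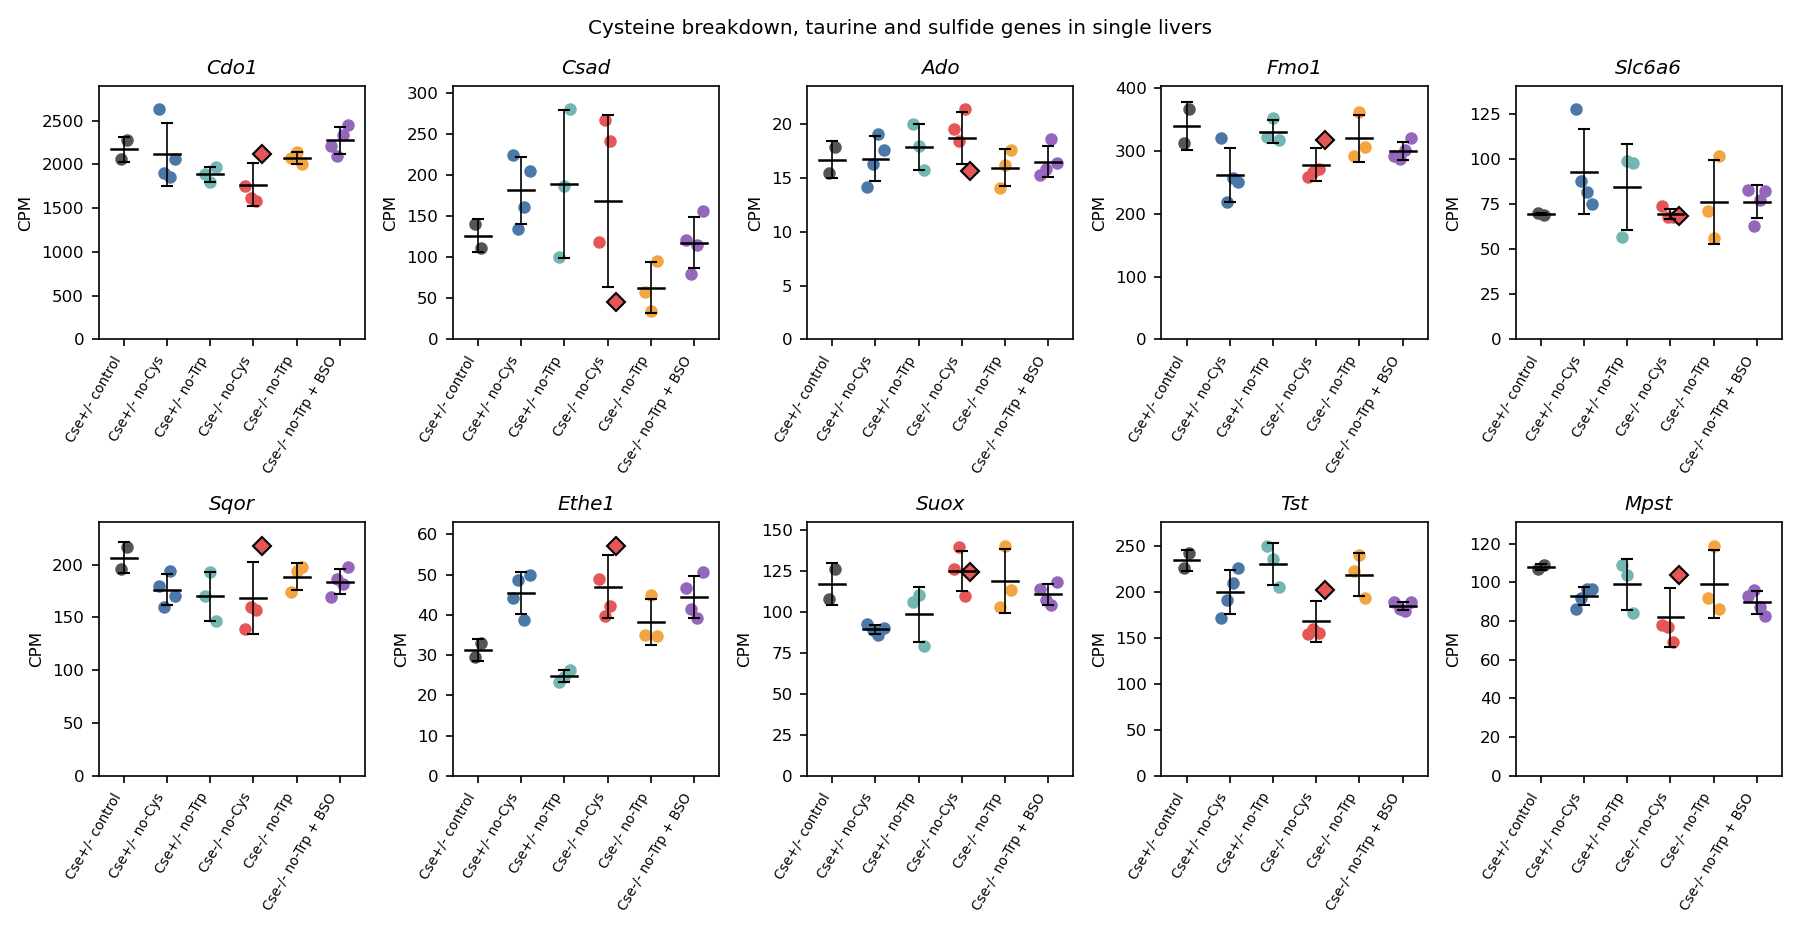
CPM with TMM scaling of each of the 10 members in every liver, by genotype and diet, with 1 point per liver and bars for the mean ± SD; the diamond marks av08. The Cse+/- no-Cys livers lie lowest for Suox (85.8 to 92.3 CPM), apart from 1 Cse+/- no-Trp liver at 79.0 CPM, and the Cse+/- no-Trp livers lie lowest for Ethe1 (23.4 to 26.3 CPM).

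Under cysteine-free feeding, Cse-/- livers were set against Cse+/- livers, which asks what the loss of cystathionine γ-lyase adds to the loss of dietary cysteine. Here 1 of the 10 members passed the test: Suox rose. The background is 23.8% of the 14759 genes tested, with 11.6% higher and 12.2% lower, so that the share of members past the test was no higher than that of all genes. The median log2 fold change of the members was -0.09, against -0.009 over all genes, with 4 members above 0 and 6 below. At an unadjusted p under 0.05 there were 4 (Suox, Tst, Cdo1 and Slc6a6), and DESeq2 also called 1, against 22.3% of all genes by that tool. The call of Suox held under every alternative tried.

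Between the no-Cys and no-Trp diets in Cse-/- mice, which separates cysteine from another missing amino acid, 1 member passed the test: Tst fell. The background is 10.4% of genes, the members' median was -0.15 against -0.008 over all genes, and DESeq2 called 2 members, against 12.9% of all genes by that tool. Adding BSO to the no-Trp diet in Cse-/- mice changed none of the 10 by edgeR, with 1 at an unadjusted p under 0.05 (Tst) and none by DESeq2, against backgrounds of 0.793% by edgeR and 2.99% by DESeq2. The no-Trp + BSO and no-Cys diets in Cse-/- mice differed in none of the 10 by edgeR, with 1 at an unadjusted p under 0.05 (Cdo1) and 1 by DESeq2, against backgrounds of 2.75% by edgeR and 6.05% by DESeq2. These comparisons share groups, so their values are not independent of each other.

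On the no-Trp diet, Cse-/- and Cse+/- mice differed in 1 of the 10 members: Ethe1 rose, against a background of 2.64%. Between the no-Cys and no-Trp diets in Cse+/- mice, again 1 member passed the test, and it was Ethe1, which rose, against a background of 8.04%. Both comparisons use the same 3 Cse+/- no-Trp livers. Against the 2 control livers, none of the 10 passed the edgeR test on the no-Cys diet in Cse+/- mice (3 at an unadjusted p under 0.05, 1 by DESeq2, backgrounds 2.18% by edgeR and 4.41% by DESeq2). None did on the no-Trp diet (1 at an unadjusted p under 0.05, 0 by DESeq2, backgrounds 0.0474% and 0.459%). The interaction of genotype and diet, which asks whether the difference between genotypes on the no-Cys diet differs from that on the no-Trp diet, passed the edgeR test for none of the 10 (3 at an unadjusted p under 0.05, 1 by DESeq2, backgrounds 4.36% and 8.42%).

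**Figure D2:**
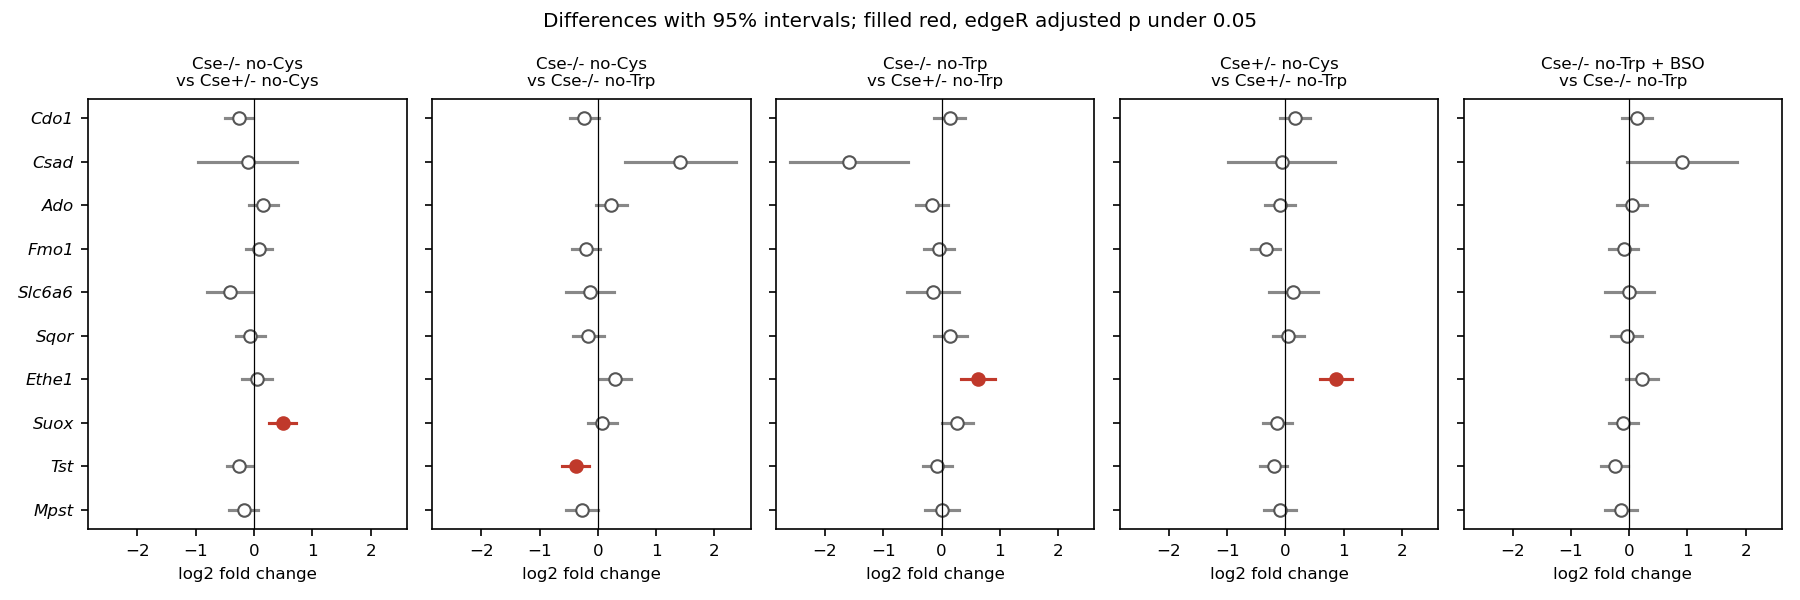
Log2 fold change of each member with its 95% interval in 5 comparisons of diets and genotypes, from edgeR's quasi-likelihood test; filled red points passed an adjusted p under 0.05. Suox is the red point between genotypes on the no-Cys diet (0.49), Tst between no-Cys and no-Trp in Cse-/- mice (-0.38), and Ethe1 in both comparisons with the Cse+/- no-Trp livers (0.62 and 0.87).

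For 6 members, RefSeq promoter windows on GRCm38.p6 were at hand, 10 windows of 300 bases that run from 250 before to 50 after a RefSeq transcript start, which need not be the gene start given below (Csad, Ado, Sqor, Ethe1, Suox and Mpst). They were searched on both strands for the core of the antioxidant response element, TGACNNNGC, which NRF2 binds, and for TGATGNAA, the core of the C/EBP-ATF element, which ATF4 binds with C/EBP partners. The former was in 4071 of 32851 mouse windows (12.4%) and in 1 of the 10, and the latter was in 1304 (3.97%) and in 1 of the 10. A match is a stretch of letters and not a shown binding site. Shown 5′ to 3′ on the strand of the gene are the Suox and Ethe1 sequences, for the members that rose, that of Csad, the member with the widest spread, and those of Sqor and Mpst, which hold the matches, in capitals. Csad (chr15:102205053-102205302, minus strand), Sqor (chr2:122771463-122771712, plus strand) and Ethe1 (chr7:24587293-24587542, plus strand) are the 250 bases before a RefSeq start. That start is the annotated gene start for Ethe1, lies 328 bases outside the annotated gene for Csad, and is an internal start for Sqor, 6476 bases inside the gene. Suox (chr10:128674074-128674168, minus strand) is the part of its window outside annotated exons, which ends at the annotated gene start, 155 bases before the RefSeq start. Mpst (chr15:78406771-78406800, plus strand) is the 30 bases before a RefSeq start 385 bases inside the gene, and 26 of the 30 lie in annotated exons.
Suox: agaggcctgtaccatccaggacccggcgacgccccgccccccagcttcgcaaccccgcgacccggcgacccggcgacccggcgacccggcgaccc
Ethe1: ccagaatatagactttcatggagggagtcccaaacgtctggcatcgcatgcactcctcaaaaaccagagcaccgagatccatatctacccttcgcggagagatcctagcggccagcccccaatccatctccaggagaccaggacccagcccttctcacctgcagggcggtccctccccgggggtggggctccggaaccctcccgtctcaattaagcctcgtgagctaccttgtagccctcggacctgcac
Csad: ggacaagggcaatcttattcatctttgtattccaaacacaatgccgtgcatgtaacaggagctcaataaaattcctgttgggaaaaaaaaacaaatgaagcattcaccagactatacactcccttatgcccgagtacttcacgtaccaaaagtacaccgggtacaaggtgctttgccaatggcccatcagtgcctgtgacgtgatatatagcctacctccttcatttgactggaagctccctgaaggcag
Sqor: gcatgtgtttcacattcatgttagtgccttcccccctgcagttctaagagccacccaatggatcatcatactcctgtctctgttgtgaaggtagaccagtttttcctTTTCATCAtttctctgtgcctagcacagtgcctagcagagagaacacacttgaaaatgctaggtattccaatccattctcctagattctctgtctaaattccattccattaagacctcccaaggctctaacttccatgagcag
Mpst: gagggcgtggggagggggTGACATGGCgga
The match in Sqor reads TTTCATCA on this strand, which is the C/EBP-ATF core on the other strand, and begins 143 bases before that internal start, within the gene. The match in Mpst reads TGACATGGC and begins 12 bases before that internal start, also within the gene. Neither core was in the windows of Suox, Ethe1 or Csad.

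Cdo1 encodes the dioxygenase that commits cysteine to sulfinate and so to taurine or sulfate. Its level was 2631, 1897, 1856 and 2065 CPM in the Cse+/- no-Cys livers and 1748, 1612, 1582 and 2123 CPM in the Cse-/- no-Cys livers. The groups overlapped only through av08, the liver at 2123 CPM. Between them, the log2 fold change was -0.26 (SE 0.113, 95% interval -0.49 to -0.02, edgeR adjusted p = 0.104), a difference that did not pass the test. Without av08 it was -0.36 (adjusted p = 0.0205), and without both av01 and av08 the adjusted p was 0.0582. Cse-/- livers on no-Trp were at 2069, 2145 and 2003 CPM, and those on no-Trp + BSO were at 2212, 2100.0, 2331 and 2448 CPM, the highest group. Of the 4 Cse-/- no-Cys livers, only av08 reached the range of the BSO group. That comparison gave 0.36 (SE 0.113, 95% interval 0.13 to 0.60, edgeR adjusted p = 0.0823), with an adjusted p of 0.0137 without av08 and 0.031 by DESeq2. Between no-Cys and no-Trp in Cse-/- mice, Cdo1 did not pass the edgeR test with all livers or without av08 alone. Without both av01 and av08 it was lower on no-Cys (-0.32, adjusted p = 0.0181). Cse+/- livers were at 1884, 1800.0 and 1972 CPM on no-Trp and at 2065 and 2273 CPM on the control diet. Group means thus ran from 1766 ± 249 CPM (SD, n = 4) in Cse-/- no-Cys to 2273 ± 150.2 CPM (SD, n = 4) in the BSO group, and in that order only the Cse-/- and Cse+/- no-Trp groups lay next to each other without overlap, at an edgeR adjusted p of 0.615.

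Csad encodes cysteine sulfinate decarboxylase, which makes hypotaurine, and lies at chr15:102176999-102204724 (minus strand, GRCm38). Its level was 225, 135, 161 and 206 CPM in the Cse+/- no-Cys livers and 119, 268, 242 and 45.5 CPM in the Cse-/- no-Cys livers. The Cse-/- no-Cys group held nearly the whole range of the gene, and its lowest liver was av08. The log2 fold change between these groups was -0.11, with a 95% interval of -0.96 to 0.74 (edgeR adjusted p = 0.876), an interval that holds differences of either sign. In Cse-/- livers on no-Trp, Csad was at 58.3, 34.9 and 95.9 CPM, the lowest group, and in Cse+/- livers on no-Trp it was at 100.1, 187 and 281 CPM. The 2 no-Trp groups did not overlap, with means of 63.0 ± 30.8 and 189.6 ± 90.6 CPM (SD, n = 3 each). Csad differed between them by -1.59 (SE 0.482, 95% interval -2.59 to -0.58, 3.01-fold), but the edgeR adjusted p was 0.0801. It was 0.0489 without av17 and 0.00345 with no filter on low counts. Against Cse-/- no-Trp, the Cse-/- no-Cys livers differed by 1.42 (SE 0.459, 95% interval 0.46 to 2.38, edgeR adjusted p = 0.0537), and all but av08 lay above the no-Trp livers. The adjusted p was 0.00559 without av08 (1.73), 0.0426 without av16 (1.85), 0.041 by DESeq2 and 0.00381 with no filter, so that this difference lies at the threshold. With BSO the Cse-/- livers were at 121, 79.8, 115 and 156 CPM (0.90 against no-Trp alone, 95% interval -0.04 to 1.84, edgeR adjusted p = 0.406), and on the control diet Cse+/- livers were at 141 and 112 CPM. The interaction was 1.48 (SE 0.626, edgeR adjusted p = 0.194), and 1.79 without av08 (adjusted p = 0.0343). Of the exon bases of Csad, 7.26% overlap Zfp740 on the other strand. The strand setting of the counting was not given in the sources used here, so reads of the 2 genes cannot be told apart there.

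Ado encodes the cysteamine dioxygenase, the other route to hypotaurine, from the cysteamine of coenzyme A breakdown, and is a gene of 1 exon at chr10:67544511-67548955 (minus strand). It was at 14.2, 16.3, 19.1 and 17.6 CPM in Cse+/- no-Cys livers and at 19.5, 18.4, 21.4 and 15.6 CPM in Cse-/- no-Cys livers. It ranged from 14.1 CPM to 20 CPM in the other 4 groups. Every group overlapped its neighbours in the order of the means, from 16.0 ± 1.76 CPM (SD, n = 3) in Cse-/- no-Trp to 18.7 ± 2.42 CPM (SD, n = 4) in Cse-/- no-Cys. Between genotypes without dietary cysteine, Ado had a log2 fold change of 0.16 (95% interval -0.09 to 0.40, edgeR adjusted p = 0.358).

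Fmo1, a flavin-containing monooxygenase that can oxidise hypotaurine to taurine, lies at chr1:162829561-162866610 (minus strand). It was at 321, 219, 257 and 251 CPM in Cse+/- no-Cys livers, with av01 the highest, and at 322, 352 and 318 CPM in Cse+/- no-Trp livers and 313 and 367 CPM in Cse+/- control livers. All Cse+/- no-Cys livers but av01 lay below the other Cse+/- livers. Against no-Trp the difference was -0.34 (SE 0.118, 95% interval -0.58 to -0.09, edgeR adjusted p = 0.0842), and -0.44 without av01 (adjusted p = 0.0182), while DESeq2 gave an adjusted p of 0.0486 on all livers. Against the control diet it was -0.37 (edgeR adjusted p = 0.145), and -0.48 without av01 (adjusted p = 0.0376). The call therefore turned on 1 liver in both comparisons. In Cse-/- livers Fmo1 was at 258, 266, 272 and 318 CPM on no-Cys, at 292, 363 and 307 CPM on no-Trp, and at 292, 287, 302 and 320.5 CPM with BSO. These groups overlapped, and genotypes on the no-Cys diet differed by 0.09 (95% interval -0.14 to 0.32, edgeR adjusted p = 0.602). Of the 61-base words of the Fmo1 exons, 6.56% occur in other genes too, and their reads are uncertain.

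Slc6a6, the sodium-coupled taurine transporter, lies at chr6:91684053-91759066 (plus strand). It was at 128, 88.0, 81.9 and 75.1 CPM in Cse+/- no-Cys livers and at 73.9, 67.8, 68.1 and 68.5 CPM in Cse-/- no-Cys livers. These groups did not overlap, though their nearest livers were at 75.1 and 73.9 CPM. The log2 fold change was -0.42 (SE 0.186, 95% interval -0.81 to -0.03), and the edgeR adjusted p was 0.11. Without av01, the liver at 128 CPM, the difference was -0.23 (adjusted p = 0.384). In the other groups Slc6a6 was at 71.2, 56.2 and 102 CPM (Cse-/- no-Trp), 82.9, 63.2, 77.4 and 82.2 CPM (with BSO), 56.9, 99.1 and 98.0 CPM (Cse+/- no-Trp) and 70.1 and 69.3 CPM (control). Each group overlapped its neighbours in the order of the means, which ran from 69.6 ± 2.89 CPM (SD, n = 4) in Cse-/- no-Cys to 93.1 ± 23.5 CPM (SD, n = 4) in Cse+/- no-Cys.

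Sqor encodes sulfide:quinone oxidoreductase, the mitochondrial enzyme that takes up hydrogen sulfide and passes its electrons to the respiratory chain. It lies at chr2:122765237-122809569 (plus strand). It was at 180.1, 159.7, 194 and 170.5 CPM in Cse+/- no-Cys livers and at 139, 159.7, 157 and 218 CPM in Cse-/- no-Cys livers. The highest of the 20 livers, av08, and the lowest, av05, were in the same group. Between genotypes on the no-Cys diet Sqor differed by -0.07 (95% interval -0.31 to 0.18, edgeR adjusted p = 0.73), and the sign changed without av05 (0.03). The other groups were at 174, 194 and 198 CPM (Cse-/- no-Trp), 169, 186, 182 and 198 CPM (with BSO), 170.1, 193 and 147 CPM (Cse+/- no-Trp) and 196 and 217 CPM (control). All neighbours in the order of the means overlapped, and Sqor passed the edgeR test in none of the comparisons, with the lowest adjusted p (0.435) between the no-Cys and no-Trp diets in Cse-/- mice.

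Ethe1 encodes the persulfide dioxygenase, which oxidises glutathione persulfide to sulfite, and lies at chr7:24587543-24608925 (plus strand). Its lowest group lay apart from every other group. In Cse+/- no-Trp livers Ethe1 was at 23.4, 24.5 and 26.3 CPM, the lowest 3 of the 20 livers. Cse+/- no-Cys livers were at 44.2, 48.7, 38.7 and 50 CPM, Cse-/- no-Trp livers at 35.1, 44.8 and 34.7 CPM, and control livers at 29.4 and 33.1 CPM. None of these groups overlapped the Cse+/- no-Trp group. From no-Trp to no-Cys in Cse+/- mice, Ethe1 rose by 0.87 (SE 0.133, 95% interval 0.60 to 1.15, 1.83-fold, edgeR adjusted p = 9.31e-04). The means were 24.8 ± 1.46 CPM (SD, n = 3) on no-Trp and 45.4 ± 5.08 CPM (SD, n = 4) on no-Cys. This call held under every alternative tried. Of the marker lists, against a background of 8.04% of all genes, 2 of the 5 endothelial markers were lower on no-Cys in this comparison (Lyve1 at -0.90 and Pecam1 at -0.40 log2 units, with sums of 139.5 to 174 against 142 to 169.9 CPM), and no other marker passed the test. Their part in the result was not tested. From Cse+/- to Cse-/- on no-Trp, it rose by 0.62 (SE 0.140, 95% interval 0.33 to 0.91, 1.54-fold, edgeR adjusted p = 0.0235), to 38.2 ± 5.71 CPM (SD, n = 3), and no marker of these lists passed the test in that comparison. The latter call was lost without av15 (0.49, adjusted p = 0.135), av17 (adjusted p = 0.0556) or av19 (adjusted p = 0.0722), in a fit of these 2 groups alone (adjusted p = 0.0999) and at a threshold of 0.01. Against control, Cse+/- no-Cys livers differed by 0.54 (95% interval 0.22 to 0.86, edgeR adjusted p = 0.0681, DESeq2 adjusted p = 0.0259) without overlap, which says little with 2 control livers.

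In Cse-/- livers Ethe1 was at 48.8, 39.8, 42.3 and 57.2 CPM on no-Cys and at 46.6, 41.5, 39.1 and 50.7 CPM with BSO, ranges that overlapped that of the Cse+/- no-Cys livers. Genotypes on the no-Cys diet differed by 0.05 (95% interval -0.20 to 0.30, edgeR adjusted p = 0.804), and the sign changed without av08 (-0.06). The difference between genotypes was thus past the test on no-Trp and not on no-Cys, and the test of that difference itself, the interaction, gave -0.57 (SE 0.184, 95% interval -0.96 to -0.19, edgeR adjusted p = 0.0835). It was -0.68 without av08 (adjusted p = 0.0211), and DESeq2 gave an adjusted p of 0.0497. In Cse-/- mice no-Cys and no-Trp differed by 0.30 (95% interval 0.03 to 0.57, edgeR adjusted p = 0.145). Of the exon bases of Ethe1, 6.67% overlap Zfp575 on the other strand, where reads cannot be told apart. In the Cse+/- no-Trp group, av17 held adipose markers (Cfd at 26.3 CPM, Adipoq at 2.91 CPM), as av14 did in the Cse-/- no-Trp group (Cfd at 11.1 CPM, Adipoq at 1.08 CPM). Summed adipose markers were 0.0467 to 30 CPM and 0.0623 to 13.1 CPM in these groups and at most 0.920 CPM in the other 4, with Lep, one of the 4 markers, at 0 in every liver. Without av17 the rise from no-Trp to no-Cys in Cse+/- mice still passed the test.

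Suox encodes sulfite oxidase, the molybdenum enzyme of the mitochondrial intermembrane space that turns sulfite into sulfate, and lies at chr10:128669894-128674073 (minus strand). It was at 92.3, 88.8, 85.8 and 89.8 CPM in Cse+/- no-Cys livers and at 126, 139.5, 109.8 and 124 CPM in Cse-/- no-Cys livers. The groups did not overlap, and the Cse+/- no-Cys livers were tightly grouped. Suox rose from 89.2 ± 2.69 to 125 ± 12.2 CPM (SD, n = 4 each), by 0.49 (SE 0.111, 95% interval 0.26 to 0.72, 1.40-fold, edgeR adjusted p = 0.0034). The difference was also 0.49 without av08 (adjusted p = 0.00609), and it was 0.51 without both av01 and av08 (adjusted p = 0.0094). Suox was at 103, 140.3 and 113 CPM in Cse-/- no-Trp livers, at 114, 107, 104 and 118 CPM with BSO, at 106, 110 and 79.0 CPM in Cse+/- no-Trp livers, and at 108 and 126 CPM in control livers. The Cse-/- no-Cys group thus overlapped every group but Cse+/- no-Cys (only av19, at 110 CPM, in the Cse+/- no-Trp group), and Cse+/- no-Cys was the lowest group mean. Cse+/- no-Cys differed from control by -0.39 (SE 0.134, 95% interval -0.67 to -0.11, edgeR adjusted p = 0.131) without overlap. With 2 control livers this lack of overlap says little, as 6 of the 10 members showed it in this comparison, and the share over all genes was not counted. On the no-Trp diet the genotypes differed by 0.27 (95% interval 0.01 to 0.54, edgeR adjusted p = 0.258), and the interaction was 0.22 (95% interval -0.14 to 0.57, edgeR adjusted p = 0.516), so that the rise was not shown to be particular to the no-Cys diet.

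Tst encodes thiosulfate sulfurtransferase (rhodanese), and Mpst the mercaptopyruvate sulfurtransferase, which takes sulfur from the keto acid of cysteine. The genes are neighbours in head-to-head order, Tst at chr15:78399556-78405907 (minus strand) and Mpst at chr15:78406416-78414013 (plus strand), with 509 bases between their starts. Tst was at 172, 192, 210.5 and 227 CPM in Cse+/- no-Cys livers, at 155, 160.3, 156 and 202 CPM in Cse-/- no-Cys livers, and at 223, 241 and 194 CPM in Cse-/- no-Trp livers. All Cse-/- no-Cys livers but av08 lay below both of the other groups. Against Cse-/- no-Trp, Tst fell by 0.38 (SE 0.112, 95% interval -0.62 to -0.15, edgeR adjusted p = 0.0355), and by 0.48 without av08 (adjusted p = 0.00627). Its mean was 219 ± 23.7 CPM (SD, n = 3) on no-Trp against 168 ± 22.5 CPM (SD, n = 4) on no-Cys. In the same comparison, in which 10.4% of all genes passed the test, 3 of 6 hepatocyte markers fell (summed 40680.5 to 66566 CPM on no-Cys against 65079 to 70544 CPM on no-Trp). So did 3 of 5 red cell markers (69.1 to 114 against 119 to 184 CPM) and 1 of 5 cholangiocyte markers (16.4 to 28.6 against 27.5 to 46.2 CPM). Of the 7 pericentral markers Cyp1a2 rose and Cyp2e1 fell, and of the 7 periportal markers Sdsl rose. Their part in the result was not tested. The call was lost in a fit of the 2 groups alone (adjusted p = 0.113), at a threshold of 0.01, and without av05, av06, av07, av14 or av15 (adjusted p of 0.0995, 0.083, 0.0991, 0.107 and 0.11). Against Cse+/- no-Cys the difference was -0.25 (SE 0.105, 95% interval -0.47 to -0.04, edgeR adjusted p = 0.0853). It was -0.32 without av01 (adjusted p = 0.0338), -0.35 without av08 (adjusted p = 0.0151) and -0.42 without both (adjusted p = 0.00429). Tst was at 189, 182, 180 and 189 CPM with BSO, at 251, 236 and 206 CPM in Cse+/- no-Trp livers and at 227 and 243 CPM in control livers. The BSO livers lay below the Cse-/- no-Trp livers without overlap (-0.25, 95% interval -0.48 to -0.01, edgeR adjusted p = 0.353).

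Mpst was at 86.4, 91.9, 96.8 and 96.4 CPM in Cse+/- no-Cys livers and at 77.9, 77.1, 69.0 and 104 CPM in Cse-/- no-Cys livers. As for Tst, the overlap rested on av08. The difference was -0.18 (SE 0.121, 95% interval -0.43 to 0.08, edgeR adjusted p = 0.304), and -0.32 without av08 (adjusted p = 0.0447). Against Cse-/- no-Trp livers, at 91.7, 119 and 86.2 CPM, the Cse-/- no-Cys livers differed by -0.27 (95% interval -0.54 to 0.00, edgeR adjusted p = 0.191), and by -0.41 without av08 (adjusted p = 0.0282). The other groups were at 92.9, 96.1, 87.2 and 82.8 CPM (BSO), 109, 104 and 84.0 CPM (Cse+/- no-Trp) and 107 and 109 CPM (control), the highest group. Over the 20 livers, log2 CPM of Tst and Mpst had a Pearson r of 0.867, the highest of all pairs of members, and the lowest was that of Cdo1 and Ado, at -0.636. These values are descriptions over livers that share groups, library preparation and scaling.

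**Figure D3:**
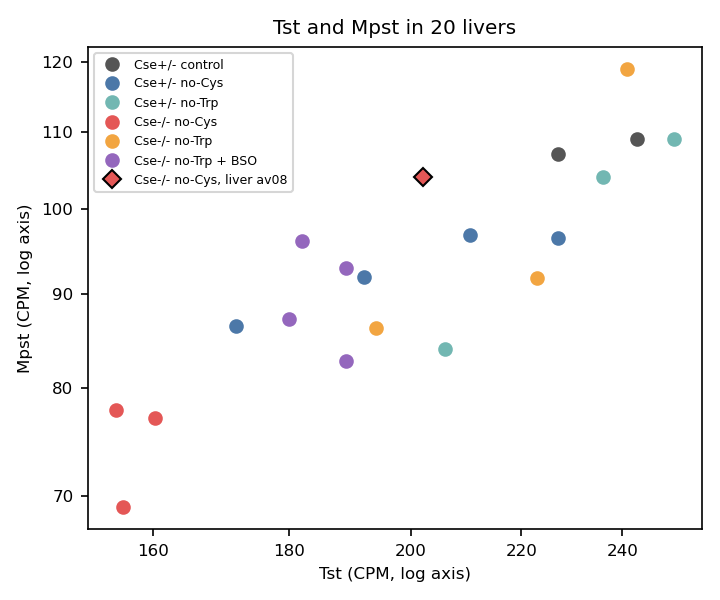
Level of Tst (x axis) against Mpst (y axis) in each of the 20 livers, in CPM with TMM scaling, coloured by group, with av08 as a diamond. The Cse-/- no-Cys livers other than av08 lie at the lower left, at 155 to 160.3 CPM of Tst and 69.0 to 77.9 CPM of Mpst, and av08 lies at 202 and 104 CPM.

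How many members passed the test between genotypes on the no-Cys diet thus depended on av08 and av01. With all livers 1 of the 10 passed. Without av08 4 did, Suox higher and Cdo1, Tst and Mpst lower, against a background of 23.7% of genes, and without av01 2 did, Suox higher and Tst lower, against 22.1%. Without both av01 and av08 there were 3, Suox higher and Tst and Mpst lower, against 23.2%. Between the no-Cys and no-Trp diets in Cse-/- mice, 3 members passed without av08 (Csad higher, Tst and Mpst lower) against a background of 12.6%. In the interaction, 2 members passed without av08 (Csad and Ethe1), against 7.80%. The library of av08 differed from the mean of the other livers of its group by 0.51 log2 units as the root mean square over the genes tested. That of av01 differed by 0.52, and the range over the 20 livers was 0.30 to 0.53 (av15), in groups of unlike size.

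**Figure D4:**
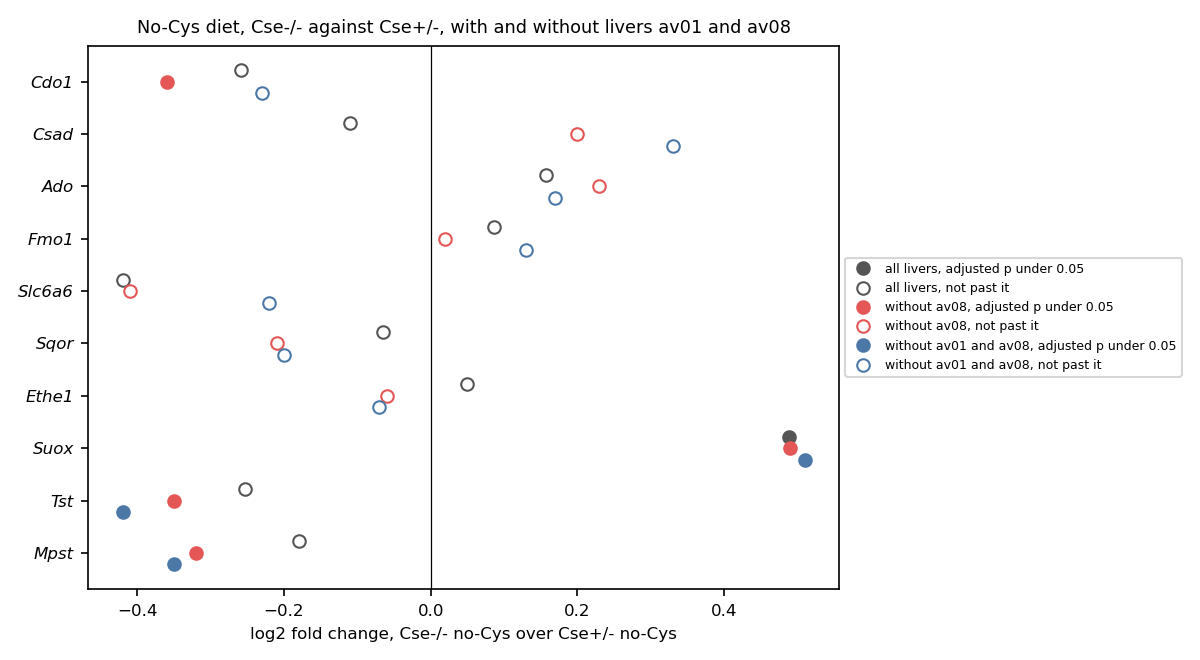
Log2 fold change of each member between Cse-/- and Cse+/- livers on the no-Cys diet, with all livers, without av08, and without both av01 and av08; filled points passed an edgeR adjusted p under 0.05. Suox passed in each of these (0.49, 0.49 and 0.51), while Tst and Mpst did not pass with all livers (-0.25 and -0.18) and passed without av08 (-0.35 and -0.32).

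Neighbouring genes of the pathways were taken as 3 lists and compared between Cse-/- and Cse+/- livers on the no-Cys diet. In the list of taurine supply and use, 16 of 18 genes could be tested, of which 3 rose, 1 fell and 12 did not pass the test (median 0.11, against -0.009 over all genes), a share near the 23.8% of all genes past the test. Slc6a12, a transporter of betaine and GABA, rose from 81.7 ± 9.40 to 155 ± 10.7 CPM (SD, n = 4 each; 0.92, SE 0.155, edgeR adjusted p = 3.40e-04). Pter, which hydrolyses N-acetyltaurine, rose from 53.8 ± 4.38 to 75.7 ± 7.23 CPM (0.49, adjusted p = 0.00249), and Lrrc8d, a subunit of volume-regulated anion channels that let taurine out of cells, rose by 0.38 (adjusted p = 0.0367). Baat, which joins bile acids to taurine or glycine, fell from 261 ± 30.5 to 194 ± 23.0 CPM (-0.42, adjusted p = 0.0144), and Cse+/- no-Cys was its highest group, with means of 194 to 213 CPM in the other 5. Baat lost its call without av01 (adjusted p = 0.0511) or av05 (0.0609), and Lrrc8d without av01, av03, av04, av05, av06 or av07 (0.065 to 0.11) and in a fit of these groups alone (0.0846). Acnat2, an acyltransferase of peroxisomes, had the lowest value, -0.81 (edgeR adjusted p = 0.211), which rested on av01, at 35.4 CPM against 4.94 to 12.4 CPM in its group mates (-0.02 without av01). With single livers left out, 2 to 4 genes of the list rose and 0 to 1 fell, against 18.1% to 23.7% of all genes. Without both av01 and av08 5 rose and 1 fell, against 23.2%.

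Of the 12 tested sources of sulfide and persulfide and thiosulfate enzymes, 5 rose, 2 fell and 5 did not pass the test (median 0.25), beside a background of 23.8% of all genes. Got1, the cytosolic aspartate aminotransferase, which can also turn cysteine into mercaptopyruvate, the substrate of Mpst, rose from 347 ± 88.7 to 927 ± 20.8 CPM (SD, n = 4 each; 1.42, SE 0.195, edgeR adjusted p = 5.08e-05). The Cse+/- no-Cys group was the lowest of the 6 for Got1. The mean was 1279 ± 273 CPM (SD, n = 2) on the control diet, above every Cse-/- no-Cys liver, 648 ± 98.5 and 595 ± 246 CPM (SD, n = 3 each) in Cse+/- and Cse-/- no-Trp livers, and 743 ± 38.3 CPM (SD, n = 4) with BSO. Also higher were Tstd1, a small rhodanese-domain protein (0.71, adjusted p = 0.0223), Cars2, the mitochondrial cysteinyl-tRNA synthetase, which can form cysteine persulfide (0.55, adjusted p = 0.0112), Txnrd1, the cytosolic thioredoxin reductase (0.46, adjusted p = 0.00261), and Txn2, the mitochondrial thioredoxin (0.27, adjusted p = 0.0187). For Tstd1 and Txn2 too the Cse+/- no-Cys group was the lowest, with means of 8.31 and 204 CPM against 12.5 to 15.9 and 246 to 256 CPM in the other 5 groups. Tstd3, another rhodanese-domain protein, fell from 21.4 ± 3.22 to 12 ± 2.98 CPM (-0.83, adjusted p = 6.51e-04), and Txnrd2, the mitochondrial thioredoxin reductase, from 39.3 ± 4.13 to 26.7 ± 1.00 CPM (-0.56, adjusted p = 3.08e-04). Of the 6 groups Cse+/- no-Cys had the highest mean for both, and the other 5 were at 12 to 18.3 CPM for Tstd3 and 26.7 to 35.0 CPM for Txnrd2. Without both av01 and av08, 3 rose and 2 fell, against 23.2% of all genes, since Tstd1 (adjusted p = 0.0886) and Txn2 (adjusted p = 0.0582) no longer passed. Tstd1 also lost its call without av02, av07 or av08 (adjusted p of 0.0566, 0.0553 and 0.0535), and Txn2 without av02 or av06 (0.0665 and 0.0564), with no filter on low counts (0.0796) and in a fit of these groups alone (0.0509).

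Of the 10 genes of the molybdenum cofactor of sulfite oxidase and of sulfate use, 1 rose, 1 fell and 8 did not pass the test (median 0.03), no more than the 23.8% of all genes. Papss2, which makes the activated sulfate used by sulfotransferases, fell from 210.1 ± 12.3 to 134 ± 15.3 CPM (SD, n = 4 each; -0.65, SE 0.131, edgeR adjusted p = 0.00145). Bpnt1, a phosphatase that clears the nucleotide left by sulfation, rose from 60 ± 2.22 to 73.6 ± 3.42 CPM (0.30, adjusted p = 0.0382), a call that was lost when av01 to av07 were left out in turn (adjusted p of 0.0509 to 0.0971) and with no filter on low counts (0.0658). Mocs3, which acts in molybdenum cofactor synthesis, had the highest value of the list (0.48, edgeR adjusted p = 0.0556), and passed without av03 (0.71, adjusted p = 0.00536) and by DESeq2 (adjusted p = 0.0433).

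**Figure D5:**
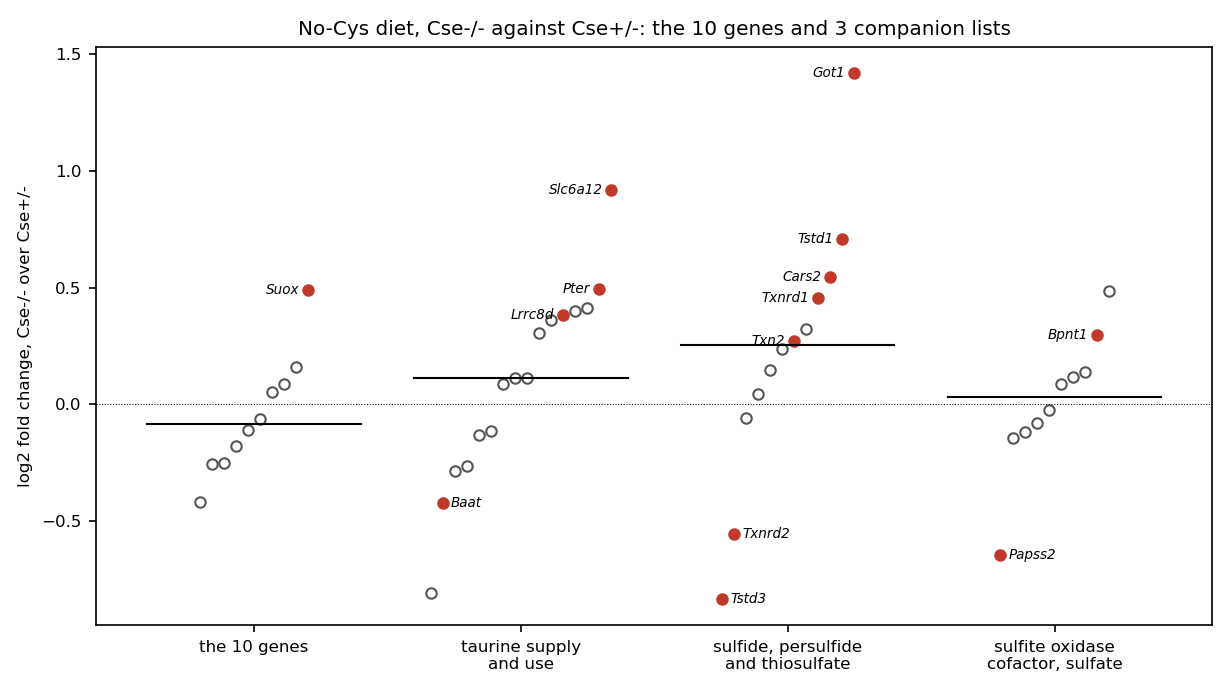
Log2 fold change between Cse-/- and Cse+/- livers on the no-Cys diet for the tested genes of the 3 pathway lists and the members, with filled points past an edgeR adjusted p under 0.05 and lines for the median of each list. Got1 (1.42) and Slc6a12 (0.92) lie highest, and Tstd3 (-0.83) and Acnat2 (-0.81, not past the test, and -0.02 without av01) lowest.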

How the data were processed

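Polyadenylated liver RNA of 20 mice was measured by RNA-seq. Per the labels and the study's methods, the authors aligned reads to GRCm38 with HISAT2 2.1.0 and counted them per gene with HTSeq 0.11.0. The deposited values are raw counts without normalization, and no source used here names the annotation release. Columns were matched to groups through the study's list of mice. That list names each condition in a merged cell beside a block of mice, so the edges of the blocks were read from its order and the group sizes in the labels. Cth checks the genotype only, and the diet of each mouse rests on this reading. Of the columns, 1 of 21 library columns was not used because that list gives it no group. Of 46078 genes, 45143 were given a symbol. Libraries held 11785740 to 57986121 counts, and the precision of each difference is given by its SE or 95% interval.

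Counts were scaled with TMM factors (0.9029 to 1.115) and tested with edgeR 4.0.16 (limma 3.58.1, R 4.3.3) by the quasi-likelihood test, with 1 mean per group, on 14759 genes kept by filterByExpr (minimum count 10, minimum total 15). The study used DESeq2, which was run as an alternative (1.42.0). Two-sided p-values were adjusted by Benjamini-Hochberg over all genes tested, at 0.05. They measure the spread between mice, and nothing says that these were more than 1 cohort. SEs are the absolute log2 fold change over the root of F. Log2 CPM for correlations used a prior count of 2. Counts were simulated for Cse-/- against Cse+/- on the no-Cys diet in this fit of 20 livers (14759 genes). On these counts the test recovered 79% of 100 genes changed 2-fold and 99% of 100 changed 4-fold, with 3 false calls. Recovery of smaller changes was not tested, and the largest difference of a member in this comparison was 1.4-fold (Suox). Whether these shares hold for the members, with their own spread between livers, was not tested.

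The members, pathway lists and markers were chosen with earlier results of these data known. Named are all members, the pathway-list genes that passed the test between genotypes on the no-Cys diet and the highest and lowest of each list, and, for each member past that test, the 2 genes most like it, a result that is not reported here. Other alternatives were RLE and upper-quartile factors, other filters on low counts (none, or a mean of at least 1 CPM), a fit of the compared groups alone, a threshold of 0.01, and each liver left out in turn. Leaving out both av01 and av08 was added after seeing the data. Gene positions, exon lengths and exon overlaps came from an annotation of GRCm38, and promoter sequences from RefSeq (GRCm38.p6). Figures were drawn with Python 3.11.15 and matplotlib 3.10.9.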

Additional observations from a re-analysis of the deposited data

Results flagged for a closer look

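Within groups of 4 livers, 30 pairs of member and group were checked for a single liver far from the others, and 2 were found, where chance gives about 1 in 20 groups. In the Cse-/- no-Cys livers, av05 had the highest level of Slc6a6, at 73.9 CPM against 67.8 to 68.5 CPM in the other 3, so that its gap to the next liver was 0.893 of the range of the group. In the same group av08 had the highest level of Tst, at 202 CPM against 155 to 160.3 CPM, with a gap of 0.891 of the range. Both exceed the 95% critical value for 4 samples.

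The difference between genotypes under cysteine-free feeding differed from that under tryptophan-free feeding for 4 of the 38 tested genes of the pathway lists, by the interaction term of edgeR's quasi-likelihood test, which 4.36% of all genes passed. Got1 had an interaction of 1.54 on the log2 scale (adjusted p = 0.00562), Txnrd1 0.54 (adjusted p = 0.0468), Tstd3 -0.96 (adjusted p = 0.0224) and Papss2 -1.02 (adjusted p = 0.00682). Positive values mean a more positive difference on the no-Cys diet.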

How the results depend on the processing

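RLE and upper-quartile factors and a filter at a mean of 1 CPM changed no count of members past the test, and all 120 group means in CPM moved by less than 1 SD under the former. Between genotypes on the no-Cys diet, the count of 1 became 3 without both av01 and av08 and 1 to 4 with single livers left out. Csad turned to 0.33 without both (-0.43 to 0.20 with single livers out), Ethe1 to -0.07 (-0.06 to 0.12) and Sqor ranged from -0.21 to 0.03. For no-Cys against no-Trp in Cse-/- mice, the count of 1 became 0 at a threshold of 0.01 and in a fit of these groups alone, 2 with no filter and with DESeq2, 4 without both livers and 0 to 3 with single livers out. For Cse-/- against Cse+/- on no-Trp, 1 became 0 at 0.01 and with these groups alone, 2 with no filter and 0 to 1 with single livers out. For no-Cys against no-Trp in Cse+/- mice, 1 became 2 without both livers and with DESeq2, and 1 to 2 with single livers out. From 0, the count rose to 1 without both livers and with DESeq2 for BSO against no-Cys (0 to 1 with single livers out). Against control on no-Cys it rose to 2 without both livers and 1 with DESeq2 (0 to 1), and in the interaction to 1 with no filter, 2 without both and 1 with DESeq2 (0 to 2). The share of all genes past the test moved with these settings and is the background of each count. For no-Cys against no-Trp in Cse-/- mice, where 10.4% passed, it was 13.9% without both livers, 12.9% by DESeq2, 5.25% with no filter, 3.81% with these groups alone, 3.16% at 0.01 and 4.65% to 12.6% with single livers out. Without both livers it was 8.74% for the same diets in Cse+/- mice, 7.81% for BSO against no-Cys, 3.26% against control on no-Cys and 8.83% in the interaction. By DESeq2 it was 10.2%, 6.05%, 4.41% and 8.42% for the same 4 comparisons. For Cse-/- against Cse+/- on no-Trp, where 2.64% passed, it was 0.488% at 0.01, 0.581% with these groups alone and 2.08% with no filter. With single livers out it was 0.742% to 2.87% there, and 4.05% to 9.01% for no-Cys against no-Trp in Cse+/- mice. That range was 0.352% to 6.97% for BSO against no-Cys and 2.37% to 7.80% in the interaction, where 2.95% passed with no filter. At a threshold of 0.01, the pathway-list calls of Baat, Lrrc8d, Cars2, Tstd1, Txn2 and Bpnt1 between genotypes on no-Cys food were lost. The cause was not tested.

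Over all genes, 3515 passed between genotypes on the no-Cys diet (1860 to 3603 over the alternatives), 1535 (467 to 2039) between no-Cys and no-Trp in Cse-/- mice, 117 (28 to 361) with BSO against no-Trp, 406 (40 to 1149) with BSO against no-Cys, 389 (72 to 727) between genotypes on no-Trp, 1186 (329 to 1487) between no-Cys and no-Trp in Cse+/- mice, 322 (10 to 599) and 7 (1 to 71) for no-Cys and no-Trp against control, and 643 (160 to 1299) in the interaction. No paired analysis was possible because the columns of the table carry no replicate numbers. Between genotypes on no-Cys, the SE of Ado, with the fewest counts, was 0.118, and that of Cdo1, with the most, was 0.113. Whether depth limited a member was not tested.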

Other observations

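Other genes of the 3 pathway lists passed the edgeR test in comparisons not described above. Between no-Cys and no-Trp in Cse-/- mice (background 10.4% of genes), 1 of 16 genes of taurine supply and use was higher (Pter, 0.52, adjusted p = 0.009) and 1 lower (Vnn3, -0.44, adjusted p = 0.0139). Of the 12 sulfide and thiosulfate genes 2 were higher (Cbs and Txnrd1), and of the 10 for the sulfite oxidase cofactor and sulfate 1 was higher (Mocs1, 0.30, adjusted p = 0.0464) and 1 lower (Papss2). Between the same diets in Cse+/- mice (background 8.04%), 5 of the 12 sulfide and thiosulfate genes were higher: Cbs, Selenbp1 (0.50, adjusted p = 0.0149), Tstd2 (adjusted p = 0.0334), Tstd3 (0.71, adjusted p = 0.0119) and Txnrd2 (0.33, adjusted p = 0.0486). Got1 and Txn2 (-0.30, adjusted p = 0.0372) were lower, as was 1 of the 16 taurine genes (Lrrc8a, -0.72, adjusted p = 0.00787). The lowest adjusted p among the 10 cofactor and sulfate genes was 0.0504 (Gphn). Pter was lower with BSO on no-Trp than on no-Cys in Cse-/- mice (-0.49, adjusted p = 0.0227, background 2.75%) and higher on no-Cys than on control in Cse+/- mice (adjusted p = 0.0138, background 2.18%). Got1, the cytosolic aspartate aminotransferase, was lower in Cse+/- livers on no-Cys than on the control diet (-1.88, SE 0.225, adjusted p = 3.38e-04) and than on no-Trp (-0.90, SE 0.205, adjusted p = 0.0117). Papss2, which makes activated sulfate, was lower in Cse-/- livers on no-Cys (-0.72, adjusted p = 0.00362) and on no-Trp + BSO (-0.62, adjusted p = 0.0383) than on no-Trp alone, and both comparisons share the 3 no-Trp livers. Txnrd1, the cytosolic thioredoxin reductase, was higher in the same comparisons, by 0.39 (adjusted p = 0.0264) and 0.57 (adjusted p = 0.0137). Cbs, which makes cystathionine from homocysteine, was higher on no-Cys than on no-Trp in Cse-/- mice (0.74, SE 0.107, adjusted p = 3.51e-04) and in Cse+/- mice (0.38, SE 0.106, adjusted p = 0.0323). Slc6a12 was higher in Cse-/- than in Cse+/- livers on no-Trp too (0.74, SE 0.178, adjusted p = 0.0329). These genes were chosen after their values were seen.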
